A study of Homo sapiens with 6 samples.

Results

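Histone gene transcripts were taken from the array table by symbol, as the targets whose names start with HIST1, HIST2, HIST3 or HIST4, or with H1F, H2AF or H3F. The rule found 79 of the 37879 targets. They comprised 64 genes with HIST names, called clustered replication genes here, and 15 variant genes, which carry the H1F, H2AF and H3F names. The name alone set the class, and whether each of the 64 is expressed with replication was not tested. The RNA came from HEK293T cells, an established human embryonic kidney line, held in prometaphase with Nocodazole at 50 ng/ml for 15 h per the labels (the methods give a longer time). All cells were transfected, with the empty vector for 3 control IPs or with a plasmid coding for Stau155-FLAG, the tagged RNA-binding protein Staufen1, for 3 Stau1 IPs. Every IP used the same anti-FLAG antibody. Each IP was read on 1 array of an Illumina BeadChip, on which a target is measured by many beads carrying its probe. The IP captured the plasmid-encoded tagged protein, not the endogenous one. Nothing in the labels says whether the replicates were separate cultures, and p-values measure only the spread between these arrays.

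Histones package DNA into nucleosomes, built from the core histones H2A, H2B, H3 and H4 and closed by the linker histone H1. Most histone protein is made in S phase from short intronless genes that lie in clusters, whose mRNAs end in a stem-loop in place of a poly(A) tail and are degraded when replication ends. Variant histones are encoded by separate genes, mostly with introns and polyadenylated mRNAs, and are made throughout the cell cycle. H2AFX, the gene of the DNA damage histone H2A.X, lies between the classes, since its mRNA can end either way. The labelling kit named by the labels is known to copy RNA from an oligo(dT) primer, so transcripts without a poly(A) tail and transcripts at a low level cannot be told apart here. Near-identical members, such as the H4 genes, can also share hybridization, and HIST2H2AA3 has an identical copy beside it on chromosome 1.

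The median signal of the arrays lay between 87.9 and 101.7, and the background estimated from the detection p between 77.6 and 89.6. Between 11635 and 13054 targets per array were detected, at a detection p under 0.05. Of the markers of the cell line and of the arrest, 9 of 10 were detected on all 6 arrays, and PAX2 on 1. Of the 6 markers of other cells, 5 were detected on no array, and INS was detected on 4. STAU1 had a signal of 2499, 3246 and 2758 in control IPs 1 to 3 in turn, and of 2845, 1857 and 3130 in Stau1 IPs 1 to 3. The deposited table does not say whether its probe reads the plasmid's transcript, so the target was not used to check the labels. Its log2 difference was -0.17 (SE 0.15). The array labelled Stau1 IP 2 stood apart from its group. Across the 9884 targets that every array detected, the array labelled Stau1 IP 2 correlated at 0.940 and 0.943 with the other Stau1 IPs, while these correlated at 0.996 with each other. It correlated at 0.977 with control IP 3. The array labelled control IP 2 stood less clearly apart, at 0.977 and 0.982 with control IPs 1 and 3, which correlated at 0.983 with each other. It correlated at 0.983 and 0.984 with Stau1 IPs 1 and 3, where control IPs 1 and 3 lay between 0.940 and 0.963. These correlations run across targets of shared arrays and are a description. Because the 2 arrays may have been exchanged, they are shown singly, and results are given with all arrays and without both.

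Of the 64 clustered genes, 16 (25%) were detected on all 6 arrays and 33 (51.6%) on none. Of all targets, 26.1% were detected on all arrays and 59.5% on none, so the share of clustered genes detected on all arrays was close to that of all targets. Of the 15 variant genes, 8 (53.3%) were detected on all arrays and 6 (40%) on none. The 33 clustered genes detected on no array had signals between 58.0 and 115.8. Among the clustered genes, those of the HIST1 cluster on chromosome 6 were detected on all arrays in 11 of 53 cases. Those of HIST2 on chromosome 1 were so in 4 of 7 cases and those of HIST3, also on chromosome 1, in 1 of 3. HIST4H4, the lone gene on chromosome 12, was detected on no array. By type of histone, the clustered genes detected on all arrays were 2 of 6 H1 genes, 4 of 15 H2A genes, 4 of 18 H2B genes, 2 of 11 H3 genes and 4 of 14 H4 genes. No type was missing.

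**Figure D1:**
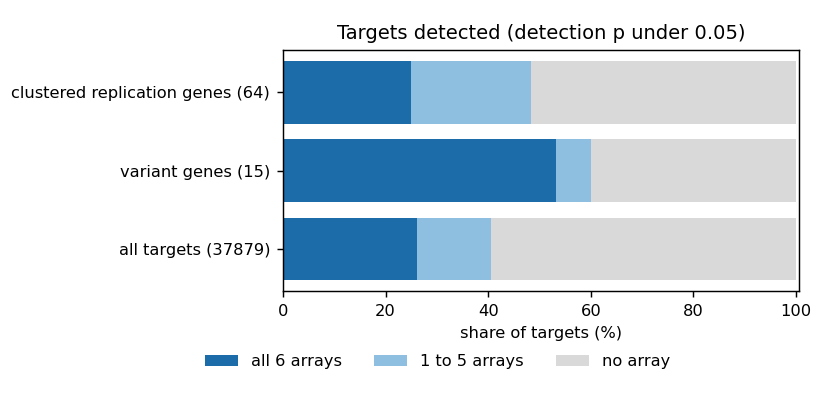
Share of targets (horizontal axis, percent) detected on all 6 arrays, on 1 to 5 arrays and on no array, for the 64 clustered replication genes, the 15 variant genes and all 37879 targets. The clustered genes (25% on all arrays) sit near all targets (26.1%), and the variant genes are at 53.3%.

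The variant genes detected on all arrays included the H3.3 genes H3F3A and H3F3B, the H2A.Z gene H2AFZ, the macroH2A genes H2AFY and H2AFY2, H2AFX, and the linker histone genes H1F0 and H1FX. H2AFV, which encodes the other H2A.Z protein, was not detected on 1 array, the one labelled Stau1 IP 2, with a detection p of 0.0501. The 6 genes detected on no array were H1FNT and H1FOO, linker histones of germ cells, H2AFB1, H2AFB2 and H2AFB3, which are known from testis, and H2AFJ. The last had signals between 246.6 and 435.2 with detection p-values between 0.0997 and 0.345. Its bead numbers were not whole, as for targets read by several probes. HIST1H2BD shared this, with signals of 338.6 to 503.1 and detection on 2 arrays. So did H2AFB1, H2AFY, H3F3A, HIST1H2BK and HIST2H2AA3 among the named genes, and their signals may likewise combine several probes.

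RefSeq (GRCh38.p14) matched 74 of the 79 symbols to 1 gene each. The 59 matched clustered genes span a median of 495 bases, and 5 of them over 1000 bases. The variant genes span a median of 2204 bases, and 12 of 15 exceed 1000. Of the clustered genes over 1000 bases, 3 (HIST1H2BK, HIST1H3D and HIST2H2BE) were detected on all arrays. HIST1H2BD was detected on 2 arrays and HIST2H2BF on none. The median span was 502 bases for the 16 clustered genes detected on all arrays and 496 for the 31 matched genes detected on none. In the 250 bases before the start, the letters TATAAA were found on either strand in 37 of 54 clustered genes with a sequence (68.5%), 4 of 14 variant genes (28.6%) and 13.0% of all 27305 genes. The letters CCAAT were found on either strand in 83.3%, 85.7% and 37.0%. A match describes the letters and is not a site.

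The 150 bases before the start are printed for 4 members described below whose signal differed between arrays, chosen after their values were seen, 5′ to 3′ on the gene's strand, with each TATAAA and CCAAT match on either strand in capitals. They lie at chr6:26056471-26056620 (minus strand, HIST1H1C), chr1:149842751-149842900 (minus, HIST2H2AA3), chr1:149886768-149886917 (plus, HIST2H2AC) and chr11:119095466-119095615 (minus, H2AFX) of GRCh38.p14.
HIST1H1C: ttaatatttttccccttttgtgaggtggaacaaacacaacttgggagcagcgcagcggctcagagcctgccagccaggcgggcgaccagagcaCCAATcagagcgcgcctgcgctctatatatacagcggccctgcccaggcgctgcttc
HIST2H2AA3: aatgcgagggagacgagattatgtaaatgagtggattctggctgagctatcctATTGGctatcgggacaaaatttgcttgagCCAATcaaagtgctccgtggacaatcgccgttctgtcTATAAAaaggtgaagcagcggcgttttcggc
HIST2H2AC: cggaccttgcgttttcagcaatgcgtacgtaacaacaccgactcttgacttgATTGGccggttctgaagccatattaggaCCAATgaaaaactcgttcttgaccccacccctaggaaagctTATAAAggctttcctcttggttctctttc
H2AFX: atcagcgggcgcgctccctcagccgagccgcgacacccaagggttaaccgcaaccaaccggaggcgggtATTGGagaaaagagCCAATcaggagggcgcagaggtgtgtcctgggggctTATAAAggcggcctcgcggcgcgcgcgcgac
HIST2H2AA3, HIST2H2AC and H2AFX each held 1 TATAAA and 2 CCAAT matches. HIST1H1C held 1 CCAAT match and no TATAAA.

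Stau1 IPs were compared with control IPs to find transcripts held by Staufen1, with the thresholds of the methods (fold above 2.5, unadjusted p under 0.05). No histone transcript was enriched or depleted at this threshold in limma, where 1 of all targets was enriched (0.00264%) and 0 depleted (0%). Without both arrays numbered 2, described below, 236 targets were enriched (0.623%), again with no histone transcript among them. After Benjamini-Hochberg adjustment over all targets, 0 of 79 passed at any fold, while 7 had an unadjusted p under 0.05. These were 2 with a higher level in Stau1 IPs (2.53%, against 3.94% of all targets) and 5 with a lower one (6.33%, against 5.12%). The methods' t-test, without moderation, also gave 0 members at the adjusted threshold. The log2 difference, that is the log2 fold change as normalized Stau1 IP minus control IP signal (SE, its standard error), on a scale that understates the changes of dim transcripts, had a median of 0.01 over the 64 clustered genes and -0.03 over the 15 variant genes. It was 0.00 over all 37879 targets. It was above 0 for 33 clustered and 7 variant genes, together 50.6% against 51% of all targets. Over the members detected on all arrays, the median was 0.02 for 16 clustered genes and -0.18 for 8 variant genes, and 50% of them were above 0, against 49.6% of all such targets. Of these 24 members, 2 had an unadjusted p under 0.05 with a higher level (8.33%, against 10.1% of such targets) and 4 with a lower one (16.7%, against 12.5%). The 4 were all variant genes.

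H2AFX had the largest log2 difference of the 79 members. Its signal was 554.0, 828.4 and 523.2 in control IPs 1 to 3 and 1426, 720.4 and 1607 in Stau1 IPs 1 to 3. The arrays labelled Stau1 IP 1 and 3 were the high ones, and in the deposited signals the arrays numbered 2 overlapped. After normalization the groups did not overlap, at a log2 signal of 9.33 ± 0.20 (SD, n = 3) for the controls against 10.20 ± 0.43 (SD, n = 3) with Stau155-FLAG. The log2 difference was 0.87 (SE 0.23, 95% confidence interval 0.30 to 1.44), a fold of 1.83, with a limma adjusted p = 0.344. By a two-sided exact permutation test p was 0.1, the smallest that 3 arrays against 3 allow. With median centring the groups overlapped and the value was 0.79.

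H2AFV encodes an H2A.Z protein, the histone that marks promoters of active genes. Its signal was 109.3, 308.3 and 115.2 in control IPs 1 to 3 and 342.8, 115.3 and 340.1 in Stau1 IPs 1 to 3. The bead standard error was between 4.73 and 15.2. The array labelled control IP 2 stood with Stau1 IP 1 and 3, and the array labelled Stau1 IP 2 stood with control IP 1 and 3. The log2 difference was 0.41 (SE 0.42), smaller than the spread within the groups (SD 0.54 and 0.68), with a limma adjusted p = 0.873. Its paralog H2AFZ did not share this order. H2AFZ had signals of 13536, 13354 and 12148 in control IPs and of 11393, 8047 and 11472 in Stau1 IPs, and its lowest array was the one labelled Stau1 IP 2. Its log2 difference was -0.31 (SE 0.17, limma adjusted p = 0.717).

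**Figure D2:**
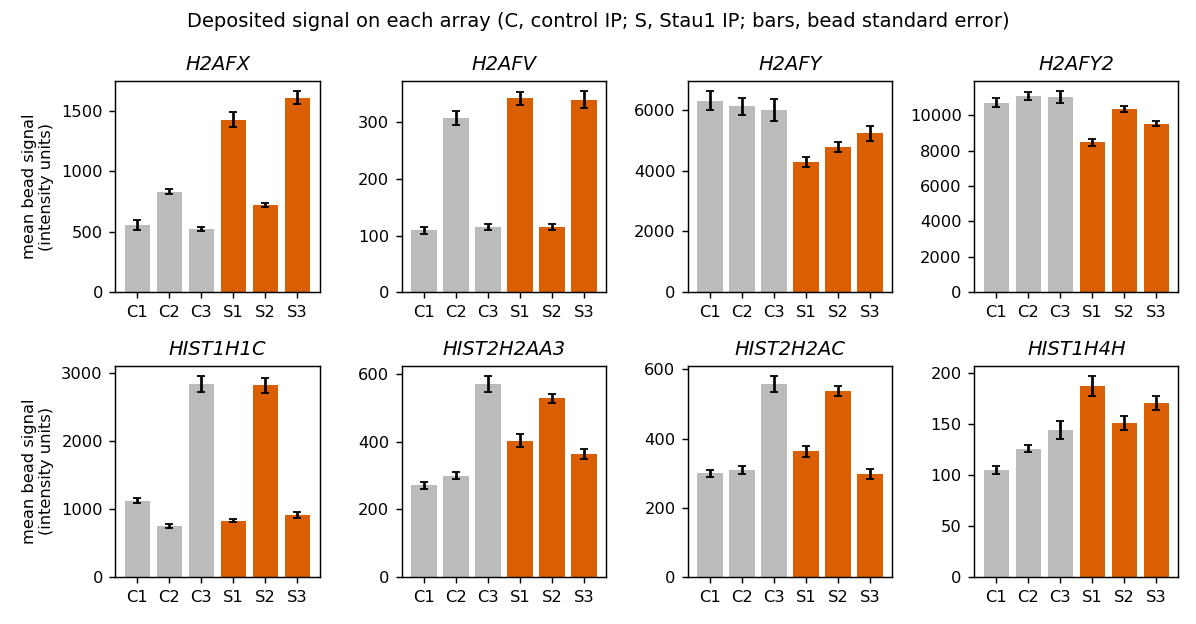
Deposited mean bead signal (vertical axes, intensity units, each from 0) of 8 histone transcripts on control IP arrays C1 to C3 (grey) and Stau1 IP arrays S1 to S3 (orange), with the standard error between beads. H2AFV is between 109.3 and 115.3 on C1, C3 and S2 and between 308.3 and 342.8 on C2, S1 and S3, whereas HIST1H1C is at 2836 on C3 and 2811 on S2.

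The macroH2A and H3.3 genes had negative log2 differences with groups that did not overlap. MacroH2A is an H2A with a large extra domain, known from silent chromatin. H2AFY had signals of 6300, 6110 and 5989 in control IPs and of 4277, 4778 and 5224 in Stau1 IPs, so every control IP was above every Stau1 IP. Its log2 difference was -0.38 (SE 0.07, fold 0.770, limma adjusted p = 0.228). H2AFY2 had signals of 10719, 11100 and 11047 in control IPs and of 8472, 10354 and 9533 in Stau1 IPs, again without overlap. Its log2 difference was -0.20 (SE 0.06, limma adjusted p = 0.416). H3.3 replaces H3 outside S phase, and H3F3A and H3F3B encode the same protein. H3F3A had signals of 17220, 19872 and 15571 in control IPs and of 14125, 15073 and 15068 in Stau1 IPs. H3F3B had 1725, 2391 and 1869 in control IPs and 1869, 1545 and 1986 in Stau1 IPs, which overlap before normalization. Their log2 differences were -0.19 and -0.18 (SE 0.06 and 0.07), with an adjusted p of 0.448 and 0.523 from limma. The groups stayed apart under 7 of 7 normalizations for H2AFY and H2AFY2, 6 of 7 for H3F3B and 4 of 7 for H3F3A. The linker histone genes had log2 differences near 0, of 0.09 (SE 0.11) for H1F0, with 5951, 7203 and 7240 in control IPs and 6841, 6401 and 8411 in Stau1 IPs, and 0.13 (SE 0.29) for H1FX. H1FX had 3566 to 4910 on 5 arrays and 8258 on the array labelled Stau1 IP 2.

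Groups without overlap were found for 3 members with Stau1 IPs higher (3.8%, against 6.57% of all targets) and 7 with Stau1 IPs lower (8.86%, against 7.89%). Among the variant genes alone, 4 of 15 had Stau1 IPs lower (26.7%), and these were the 4 just described. Among the clustered genes the count was 3 of 64 lower (4.69%) and 2 higher (3.12%). Those detected on all arrays were HIST1H2BJ, with a log2 difference of -0.20 (SE 0.09), and HIST1H4H, with 0.32 (SE 0.11, limma adjusted p = 0.476). HIST1H4H had signals of 105.0, 125.8 and 144.2 in control IPs and of 187.3, 150.8 and 171.1 in Stau1 IPs, close to the background. HIST1H2BE was detected on 2 control IP arrays and no Stau1 IP array, with signals of 104.2, 119.8 and 111.1 in control IPs and of 103.5, 102.9 and 98.5 in Stau1 IPs. HIST1H2BH (lower) and HIST2H2AB (higher) were detected on no array. No fold is given for these 3. The last 2 were named for their small count, after their values were seen. Over the 24 members detected on all arrays the counts were 2 higher (8.33%, against 9.77% of such targets) and 5 lower (20.8%, against 13.2%).

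For most clustered genes detected on all arrays, the groups overlapped. HIST1H2BK, an H2B gene, had signals of 11803, 11799 and 14506 in control IPs and of 11182, 12007 and 11236 in Stau1 IPs. Its log2 difference was -0.11 (95% confidence interval -0.42 to 0.21). HIST1H4C, an H4 gene, had 6816, 10798 and 10280 in control IPs and 8220, 10722 and 8088 in Stau1 IPs. Its log2 difference was -0.03 (95% confidence interval -0.49 to 0.44). HIST2H4A had the largest log2 difference of the class, 0.70 (SE 0.39, limma adjusted p = 0.709), with signals of 198.2, 298.1 and 628.9 in control IPs and 657.7, 506.2 and 580.4 in Stau1 IPs. In these signals control IP arrays 1 and 2 were the low ones, and control IP 3 lay within the Stau1 IPs. After normalization control IP 3 was the highest array, at a log2 signal of 9.39 against 9.31, 9.27 and 9.02 in Stau1 IPs 1 to 3. The other clustered genes detected on all arrays had log2 differences between -0.13 (HIST1H1C) and 0.20 (HIST2H2AA3). HIST1H1A, a linker histone gene, had 140.1, 149.3 and 135.4 in control IPs and 147.2, 202.3 and 147.9 in Stau1 IPs, a log2 difference of 0.19 (SE 0.18). HIST2H2BE, an H2B gene, had 120.3, 151.4 and 219.7 in control IPs and 212.0, 146.5 and 195.0 in Stau1 IPs, a log2 difference of 0.12 (SE 0.20). HIST3H2A, an H2A gene, had 358.7, 404.1 and 372.9 in control IPs and 377.5, 323.6 and 347.9 in Stau1 IPs, a log2 difference of -0.11 (SE 0.11). The groups overlapped for all of them. HIST1H3D, an H3 gene, had 111.3, 125.1 and 142.5 in control IPs and 118.3, 122.3 and 127.8 in Stau1 IPs, a log2 difference of -0.06 (SE 0.09). HIST1H2AM, an H2A gene, had 108.7, 135.3 and 147.4 in control IPs and 137.6, 133.5 and 140.2 in Stau1 IPs, a log2 difference of 0.04 (SE 0.09). HIST1H4K, an H4 gene, had 206.0, 284.8 and 237.4 in control IPs and 205.4, 258.6 and 240.2 in Stau1 IPs, a log2 difference of -0.02 (SE 0.16). Their differences were smaller than their standard errors.

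**Figure D3:**
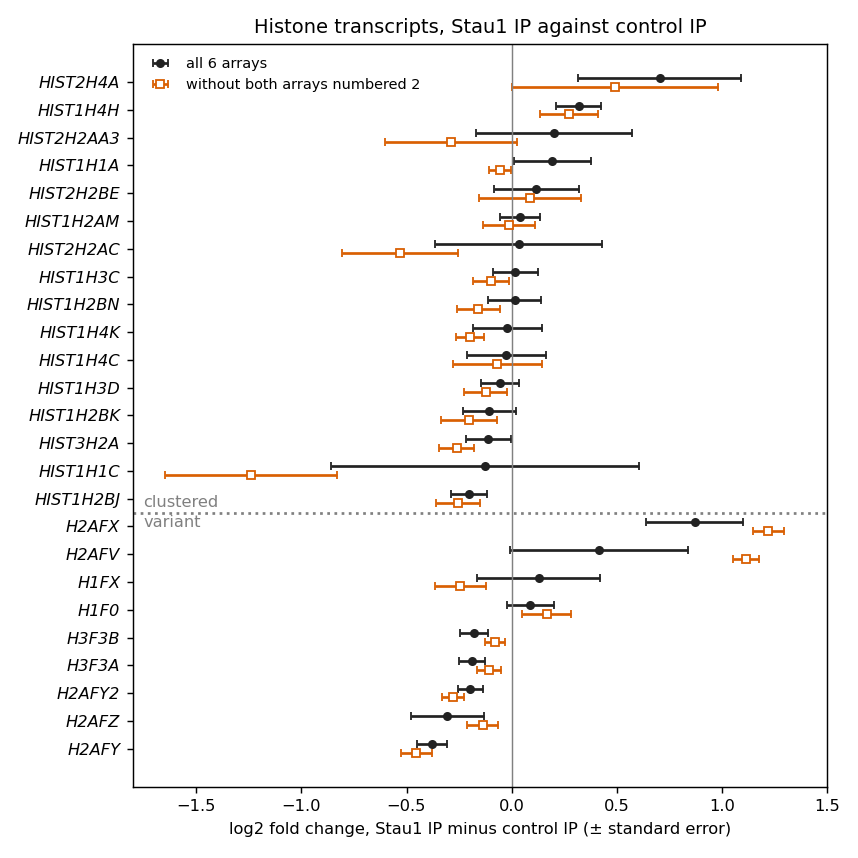
Log2 difference (horizontal axis, Stau1 IP minus control IP, with its standard error) of the 16 clustered and 8 variant genes detected on all 6 arrays, and of H2AFV. Filled points use all arrays and open squares leave out both arrays numbered 2. H2AFV moves from 0.41 to 1.11 and HIST1H1C from -0.13 to -1.24.

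Without both arrays numbered 2, which leaves 2 arrays against 2, 5 of 79 members passed the adjusted threshold in limma. This comparison was made because these arrays may have been exchanged, and it was chosen with their values known. Of the 5 members, 2 were higher (2.53%, against 3.62% of all targets) and 3 lower (3.8%, against 3.04%), pooled shares near the background. By class, 2 of 15 variant genes were higher and 2 lower (13.3% each). Of the 64 clustered genes, 0 were higher and 1 lower (1.56%). At an unadjusted p under 0.05 the counts were 3 higher (3.8%, against 8.45%) and 11 lower (13.9%, against 9.09%). Over members detected on all arrays they were 1 higher (4.17%, against 22.7%) and 5 lower (20.8%, against 27.3%). Groups did not overlap, now 2 arrays against 2, for 12 members higher (15.2%, against 22.1%) and 25 lower (31.6%, against 24.1%). Among members detected on all arrays these were 2 (8.33%, against 30%) and 10 (41.7%, against 38.8%). The higher members were H2AFX, with a log2 difference of 1.22 (SE 0.07, limma adjusted p = 0.00702), and H2AFV, with 1.11 (SE 0.06, limma adjusted p = 0.00654). The lower ones were H2AFY, with -0.45 (limma adjusted p = 0.0396), HIST1H2BD, with -0.64 (limma adjusted p = 0.0163), and H2AFJ, which was detected on no array, so that its fitted value is not read as a fold. None reached a fold above 2.5 in either direction on the normalized scale, and 0.0528% of all targets were depleted at it. Because that scale understates differences, this sets no limit on the fold of the 2 higher members in the deposited signals. For H2AFV these were 109.3 and 115.2 in control IPs 1 and 3, and 342.8 and 340.1 in Stau1 IPs 1 and 3. For H2AFX they were 554.0 and 523.2 against 1426 and 1607 on the same arrays. The log2 difference of H3F3A and H3F3B was -0.11 and -0.08 here. Of the 16 clustered genes detected on all arrays, 13 had a log2 difference below 0, with a median of -0.14, where 7 had it with all arrays. For all targets that every array detected this median was -0.05. The log2 difference was above 0 for 38% of the 79 members (48.8% of all targets) and for 20.8% of the 24 detected on all arrays (44.2% of such targets).

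Several clustered genes were high on the same pair of arrays, 1 from each group. HIST1H1C, which encodes the linker histone H1.2, had signals of 1117, 744.1 and 2836 in control IPs 1 to 3 in turn, and of 827.7, 2811 and 907.8 in Stau1 IPs 1 to 3. HIST2H2AA3 had 271.0, 299.2 and 571.9 in control IPs and 403.7, 528.8 and 363.8 in Stau1 IPs. HIST2H2AC had 299.6, 307.9 and 557.5 in control IPs and 363.8, 537.9 and 296.6 in Stau1 IPs. For all of them, control IP 3 and the array labelled Stau1 IP 2 were the brightest after normalization, as in the deposited signals. Of the 16 clustered genes detected on all arrays, 8 had this pair as their brightest (50%), against 15.3% of all 9884 such targets, and of the 8 variant genes H1FX alone did. The other clustered genes were HIST1H2BN, which had this pair in the deposited signals too, and HIST1H2AM, HIST1H3D, HIST1H4C and HIST1H4K. These last had it only after normalization. The pair was picked after the values had been seen, so the count is a description. With median centring it was 3 of 16 (18.8%, against 4.90% of all targets), and under the other normalizations between 7 and 9 of 16. Control IP 2, Stau1 IP 1 and Stau1 IP 3 were the 3 brightest arrays for 0 of the 24 members, against 15.6% of such targets. H2AFV had this order but was not among the 24, since the array labelled Stau1 IP 2 did not detect it (detection p 0.0501). The detection filter thus bears on this count, from which nothing is concluded. The arrays spanned more than 1 on the log2 scale for 6 of the 24 (25%), against 21.6%.

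The median of the 16 clustered genes, as the normalized log2 signal minus the mean of the other arrays, was -0.07, -0.19 and 0.27 in control IPs 1 to 3 and -0.04, 0.23 and -0.18 in Stau1 IPs 1 to 3. For the 8 variant genes it was 0.05, 0.06 and 0.09 on the control IPs and -0.03, -0.17 and -0.10 on the Stau1 IPs. After normalization the 2 classes thus differed most on the array labelled Stau1 IP 2, where the clustered genes were above and the variant genes below the other arrays. Most of these clustered genes had lower signals than the variant genes, so class and brightness cannot be told apart here. On this array HIST3H2A had its lowest deposited signal, 323.6, yet a normalized log2 signal of 8.72. Its highest deposited signal, 404.1 on control IP 2, became 8.54. The 9 markers of cell line and arrest detected on all arrays had medians of 0.39, 0.00 and 0.24 on the control IPs and -0.24, 0.17 and -0.38 on the Stau1 IPs. Their part in the pattern was not tested.

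**Figure D4:**
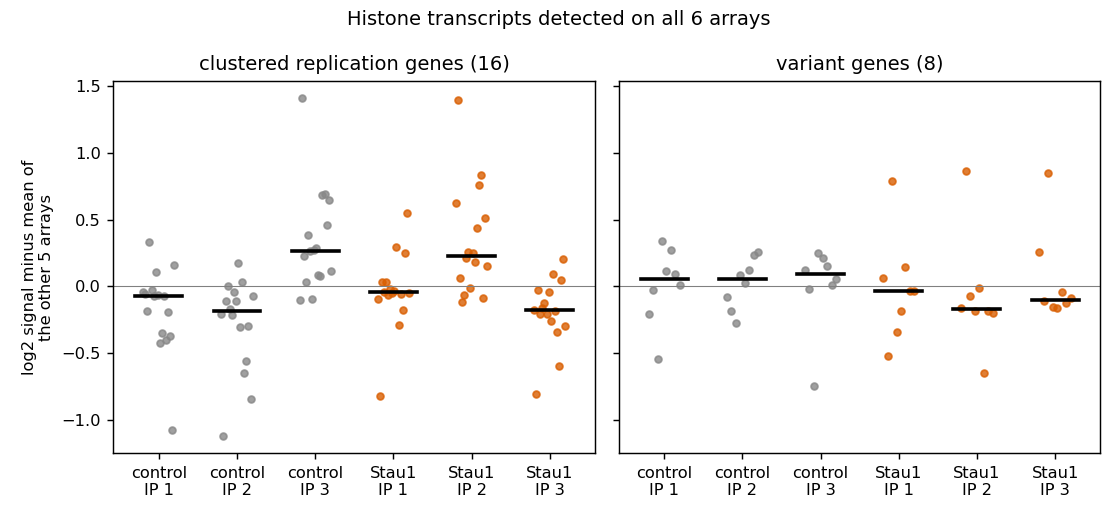
Normalized log2 signal on each array minus the mean of the other 5 arrays (vertical axis), for the 16 clustered genes (left) and the 8 variant genes (right) detected on all 6 arrays. Each point is a gene and each black line the median, which for the clustered genes is 0.27 on control IP 3 and 0.23 on Stau1 IP 2.

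Genes that process histone mRNA or deposit histones were compared in the same fit. Of 16 targets of 3′ end processing and turnover, 0 passed the adjusted threshold in limma, while 1 had an unadjusted p under 0.05 with a higher level in Stau1 IPs and 5 with a lower one. All targets passed at 3.94% and 5.12%, and those detected on all arrays, to which 12 of the 16 belonged, at 10.1% and 12.5%. The median log2 difference was -0.06. SLBP, the protein that binds the stem-loop of histone mRNA, had a log2 difference of -0.50 (SE 0.16, limma adjusted p = 0.436). UPF1, an RNA helicase needed for histone mRNA decay, had 0.42 (SE 0.14), LSM1 had -0.49 (SE 0.09) and ZCCHC11, a uridylating enzyme, had -0.44 (SE 0.08). CPSF3, the nuclease that cuts histone pre-mRNA, had -0.57 (SE 0.19). Of the 19 chaperone and deposition targets, 0 passed, 2 had an unadjusted p under 0.05 with a higher level and 4 with a lower one, and the median was -0.11. Here 14 of the 19 were detected on all arrays, with the same shares of all targets beside them. The H3-H4 chaperone genes ASF1A and ASF1B had log2 differences of -0.42 (SE 0.14) and 0.44 (SE 0.16). NAP1L1, a chaperone of H2A and H2B, had -0.91 (SE 0.25, limma adjusted p = 0.358). Without both arrays numbered 2, CPSF3 (-0.87) and PATL1 (-0.61) passed the adjusted threshold in the first list, and DAXX (-1.05), the chaperone of H3.3, and HJURP (-0.65), that of the centromeric H3 variant, in the second, where 3.04% of all targets passed as lower. At an unadjusted p under 0.05 in that limma fit, 8 of 16 and 8 of 19 were lower, and 1 and 0 higher. Of all targets 9.09% were lower and 8.45% higher, and of those detected on all arrays 27.3% and 22.7%. With all arrays the log2 difference was -0.26 (SE 0.22) for PATL1, -0.31 (SE 0.48) for DAXX and -0.25 (SE 0.24) for HJURP, and the adjusted threshold was not passed.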

How the data were processed

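RNA of 3 control IPs and 3 Stau1 IPs was measured on 6 arrays of the Illumina HumanWG-6 BeadChip type. Per the file headers, the authors deposited intensity values as BeadStudio gave them, not normalized and with the probes of a target combined, along with the standard error between beads (also an intensity), the number of beads (the median was 41 for both classes) and a detection p-value deposited per target. Intensities set no counting depth. Groups came from the sample titles.

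The methods' chain was rebuilt using limma 3.58.1 and mgcv 1.9.3 under R 4.3.3. Background was estimated per array as the median of the 200 signals whose detection p lay nearest 0.5, and was subtracted. A variance stabilizing transformation was fitted to the bead SD over 500 bins, without the lowest 33.3% of signals, and scaled to log2 at the bright end. Its constant term was set to match the bead SD of targets with a detection p above 0.01, with a floor of 1. The floor was used on every array except the one labelled Stau1 IP 2, where the term was 5.55. Robust spline normalization with 10 knots mapped each array on control IP 3, which lay closest to the mean of all arrays. Its additive constant understates the changes of dim transcripts. The scripts were tested on simulated data. All 37879 targets were fitted with lmFit and eBayes, with no filter. Python 3.11.15 with matplotlib 3.10.9 drew the figures.

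The members and lists were chosen with earlier results of these data known. Named genes are every variant gene, clustered genes detected on at least 3 arrays and members with an unadjusted p under 0.05 with or without the arrays numbered 2. Some that met this rule are named only here. With all arrays their log2 differences were -0.04 (HIST1H3A), 0.18 (HIST1H3H), -0.08 (HIST1H3J) and 0.13 (HIST1H4E). HIST1H2BF, detected on no array, also met it. Without both arrays numbered 2 HIST1H3H had 0.29 (SE 0.10). The 5 variant genes H1FNT, H1FOO, H2AFB1, H2AFB2 and H2AFB3, detected on no array, were named without values and not followed through the alternatives. HIST4H4, HIST2H2BF, HIST1H2BH and HIST2H2AB were named outside this rule, after their values were seen. No fold is given for a member undetected throughout a group. Alternatives were quantile normalization, median centring, neqc, no background subtraction, another constant term, a detection filter, a 2-fold threshold, the replicate block, eBayes with trend, leaving out arrays and the methods' t-test. Probe sequences were not used here. No total RNA was analysed here, so more RNA in an IP and more RNA in the cells cannot be told apart.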

Additional observations from a re-analysis of the deposited data

How the results depend on the processing

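No histone transcript was enriched or depleted at the threshold of the methods under any of the 18 alternatives, or at the 2-fold threshold, which was applied with all arrays only. Without both arrays numbered 2, H2AFX (1.22), H2AFV (1.11) and HIST1H1C (-1.24) had log2 differences beyond 2-fold. Their unadjusted p in limma was 3.3e-05, 2.3e-05 and 0.034, and HIST1H1C did not pass the adjusted threshold. For HIST1H1C the control IPs left differed, at a log2 signal of 10.27 on control IP 1 and 11.49 on control IP 3. The SE of its log2 difference was 0.41. Between 3 and 14 members had an unadjusted p under 0.05, and 0 passed the adjusted threshold except without both arrays numbered 2, where 5 did. The median log2 difference of the clustered genes stayed between -0.03 and 0.02, within the spread between arrays (0.05). That of the variant genes moved from -0.03 to -0.18 when only targets detected on at least 3 arrays were fitted, which leaves fewer genes, and to -0.080 without both arrays numbered 2, where that of all members was -0.043. Leaving out 1 array gave -0.080 to 0.014 for the variant genes, the lower end without Stau1 IP 2 and the upper end without Stau1 IP 1. Leaving out control IP 3 gave 0.0075. For these the cause was not tested. Deviations of same-numbered arrays from the means of their labelled groups correlated at -0.45, -0.78 and -0.39. If the arrays numbered 2 were exchanged, negative values would arise with or without pairing. Whether the replicate numbers pair the arrays therefore cannot be told from them. With the replicate block the median of the clustered genes was 0.01 and that of the variant genes -0.03, and 3 members had an unadjusted p under 0.05. Over the 37 members followed through the alternatives, the log2 difference of H2AFX stayed between 0.73 and 1.22, that of H2AFV between 0.08 (neqc) and 1.11, and that of H2AFY between -0.47 and -0.33. An alternative chosen after seeing the data, the next closest array as spline reference, gave 0.84 for H2AFX. A signal near the background limits most clustered genes. The log2 difference of 19 members changed sign under some alternatives, and neither the value with all arrays nor any value of the other sign passed the adjusted threshold. H2AFJ, 1 of them, was detected on no array, and its values are fitted values only. With median centring it was -0.025 for H1F0, -0.024 for HIST1H2BN, -0.024 for HIST1H3C, -0.037 for HIST2H2AC. With neqc it was 0.0014 for H2AFJ, 0.0011 for HIST1H2AH, 0.0013 for HIST1H2BC, 0.00081 for HIST1H4C. Without both arrays numbered 2 it was -0.24 for H1FX, -0.056 for HIST1H1A, -0.014 for HIST1H2AM, -0.16 for HIST1H2BN, -0.10 for HIST1H3C, -0.29 for HIST2H2AA3, -0.53 for HIST2H2AC. Leaving out 1 array, it ran from -0.030 to 0.14 for HIST1H2AM, -0.074 to 0.13 for HIST1H2BN, -0.31 to 0.33 for HIST2H2AC, -0.0092 to 0.34 for HIST2H2BE, -0.020 to 0.12 for HIST1H2AC, -0.21 to 0.088 for HIST1H4C, -0.068 to 0.53 for HIST2H2AA3, -0.74 to 0.43 for HIST1H1C, -0.084 to 0.022 for HIST1H2AI, -0.17 to 0.077 for HIST1H2BC, -0.20 to 0.027 for HIST1H2BK, -0.084 to 0.11 for HIST1H3C, -0.11 to 0.044 for HIST1H3D, -0.21 to 0.093 for HIST1H4K, -0.48 to 0.092 for H2AFJ, -0.16 to 0.050 for HIST1H2AH, -0.20 to 0.38 for H1FX, -0.018 to 0.32 for HIST1H1A.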
